A study of Mus musculus with 10 samples.

Results

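The 94 mouse genes described here are the protein-coding genes whose symbols begin with Kcn, taken from 21900 protein-coding genes of the RefSeq annotation of GRCm38.p6, the assembly also called mm10. They encode the pore-forming subunits of potassium channels and many of their accessory subunits. Dlx2 is a homeodomain protein that directs the differentiation of GABAergic neurons in the forebrain. Where it binds was measured by chromatin immunoprecipitation and sequencing (ChIP-seq) with an antibody against Dlx2. There were 5 immunoprecipitated libraries, each with its own list of enriched regions. The E16 libraries (embryonic day 16) came from the mouse basal ganglia, the cortex and the olfactory bulb, and the P3 libraries (postnatal day 3) from the olfactory bulb and the cortex. Another 5 libraries are inputs of the same tissues and ages, and these were not analysed here. The labels give dissected tissue rather than a purified cell type, and name no strain, genotype, treatment or pooling. A gene was counted as occupied in a list when the summit of at least 1 region, its point of highest signal, lay within the gene body extended by 10 kb on each side. With 1 library per tissue and age there are no replicates, so no difference between tissues or ages was tested, and every interval below covers counting error only.

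Potassium channels let potassium ions leave or enter the cell and thereby set the resting potential and the shape and rate of action potentials. Voltage-gated Kv channels repolarise the membrane, inward rectifiers (Kir) and two-pore channels (K2P) hold it near rest, and BK and SK channels open when intracellular calcium rises. The subunits that a neuron makes help define its firing type. Fast-spiking interneurons are known for Kv3 channels, and the fast transient A-type current of dendrites is carried by Kv4 channels with KChIP and Dpp partners.

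The lists held 14795 regions in the E16 basal ganglia, 6333 in the E16 cortex, 1666 in the E16 olfactory bulb, 734 in the P3 olfactory bulb and 2139 in the P3 cortex. Read depth is unknown, so the absence of a summit says that no region passed the authors' calling, not that Dlx2 was absent from the gene. Peak names mark removal of duplicate reads in every list but the P3 cortex list, so in the cortex age and this difference in processing cannot be told apart. Binding lists do not measure expression. Marker genes were counted too, but Dlx2 occupancy at a gene does not identify the tissue or cell type. Of 7 forebrain GABAergic marker genes 7 were occupied in the E16 basal ganglia, 7 in the E16 cortex and 6 in the E16 olfactory bulb. In the P3 olfactory bulb 4 were, and in the P3 cortex 4. Of all protein-coding genes 26.3, 17, 3.58, 2.03 and 6.08% were occupied in these lists, in the same order. All 5 cortical glutamatergic markers were occupied in the E16 cortex and 3 in the E16 basal ganglia, against 0 in the other lists. Markers of other cell types were occupied mainly in the E16 basal ganglia, with 2 of 3 for microglia, 2 of 4 for oligodendrocytes, 1 of 3 for endothelium and 1 of 4 for astrocytes. In the other lists only the astrocyte marker Slc1a3 (E16 olfactory bulb) and the endothelial marker Cdh5 (P3 cortex) were.

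Dlx2 summits were found at 36 of the 94 potassium channel genes in at least 1 list (38.3%, exact Clopper-Pearson 95% interval 28.5 to 48.9), where 31.7% of all protein-coding genes were occupied in at least 1 list and 41.6% of other genes weighted to the same lengths. Most of these 36 genes were occupied in the E16 basal ganglia, and 20 were occupied in a single list. The E16 basal ganglia list held 26 occupied potassium channel genes (27.7%, 18.9 to 37.8), against 26.3% of all protein-coding genes. In the E16 cortex 13 were occupied (13.8%, 7.57 to 22.5), against 17%, and in the E16 olfactory bulb 7 were (7.45%, 3.05 to 14.7), against 3.58%. The P3 olfactory bulb had 4 (4.26%, 1.17 to 10.5), against 2.03%. The P3 cortex had 13 (13.8%, 7.57 to 22.5), against 6.08%. In the bulb lists and the P3 cortex list the share was thus above that of all genes, before gene length was taken into account.

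Potassium channel genes are long, and long genes hold more summits. Their median length was 32.7 kb, against 17.1 kb for all protein-coding genes. The other protein-coding genes were therefore weighted to the same lengths in 20 length classes. With these weights, 35.9% of the others were occupied in the E16 basal ganglia, a difference of -8.23 percentage points for the potassium channel genes. The difference was -5.30 points in the E16 cortex, where 19.1% of the others were occupied. It was -0.54 points in the E16 olfactory bulb (7.99% of the others), 0.037 points in the P3 olfactory bulb (4.22%) and 2.99 points in the P3 cortex (10.8%). In all 5 lists the share of the others lay within the counting interval of the potassium channel share. For the E16 cortex it lay outside with the gene body alone (-7.56 points), without regions wider than 1 kb (-8.20) and with each summit given to its nearest gene (-7.51). Summit density was not weighted to gene length, so it does not bear on these weighted differences. It was furthest below that of all genes in the 2 E16 lists other than the bulb list. Potassium channel genes with their flanks held 4.38 summits per Mb in the E16 basal ganglia and 1.19 in the E16 cortex, where all protein-coding genes held 9.82 and 6.30. The values were 0.637 and 0.653 in the E16 olfactory bulb, 0.318 and 0.320 in the P3 olfactory bulb, and 1.27 and 1.04 in the P3 cortex. Density and weighted share can differ in direction. In the E16 basal ganglia 15 channel partners without a Kcn symbol held 3.97 summits per Mb, below all genes. Yet 66.7% of them were occupied, against 43.6% of others of the same lengths. For sodium (5.07 per Mb) and calcium (13.4) channel genes of that list both measures lay on the same side. A density at matched lengths was not computed.

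**Figure D1:**
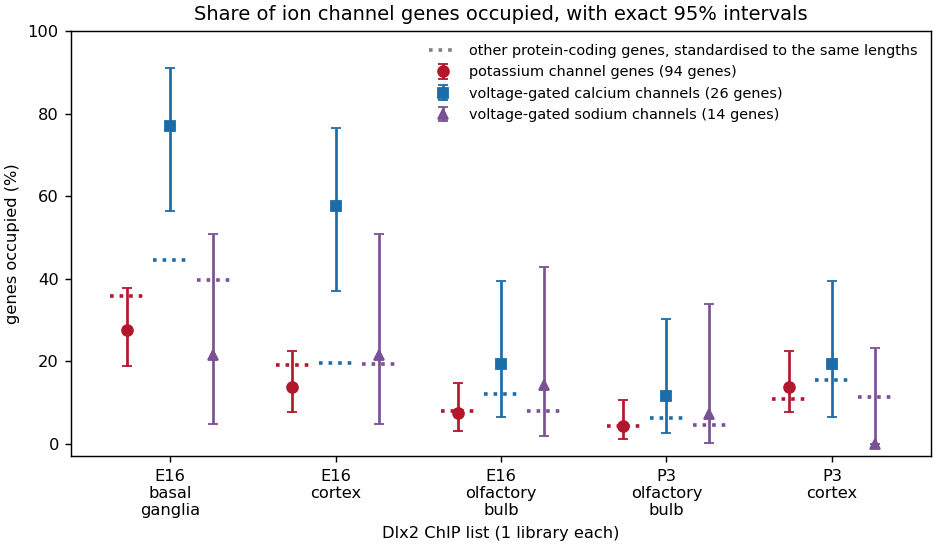
Percent of genes occupied in each list (y axis) for potassium, calcium and sodium channel genes, with points for the measured share, bars for exact 95% intervals and dotted lines for other protein-coding genes of the same lengths. The potassium channel points sit at 27.7, 13.8, 7.45, 4.26 and 13.8%, each with its dotted line inside the interval, while the calcium channel share is 76.9% in the E16 basal ganglia and 57.7% in the E16 cortex.

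In the E16 basal ganglia the difference from others of the same lengths lay within counting error. By length, the share was below that of the others among genes under 100 kb. No intervals were computed for the size groups, and they were not tested. Of the 36 potassium channel genes under 20 kb, 4 were occupied there (11.1%), against 20.2% of other genes of that size, and of the 35 genes from 20 to 100 kb 7 were (20%), against 25.7%. Of the 23 genes over 100 kb, 15 were occupied (65.2%), against 58.4% of the others. In the E16 cortex the gap was widest among the long genes, with 3 of 23 occupied (13.0%) against 21.6% of the others. In the P3 cortex 8 of the 23 long genes were occupied (34.8%), against 21.8%. The 58 genes occupied in no list (68.3% of all protein-coding genes were in none) had a median length of 21.7 kb, and the occupied ones of 124 kb. The longest genes with no summit in any list were Kcnh8 (376 kb), an ether-a-go-go family gene, and Kcnt2 (368 kb), which encodes a sodium-activated channel. They were followed by Kcnc2 (196 kb), a Kv3 gene, Kcnk2 (195 kb), a mechanosensitive two-pore channel gene, and Kcnj3 (186 kb), a G protein-gated inward rectifier gene.

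**Figure D2:**
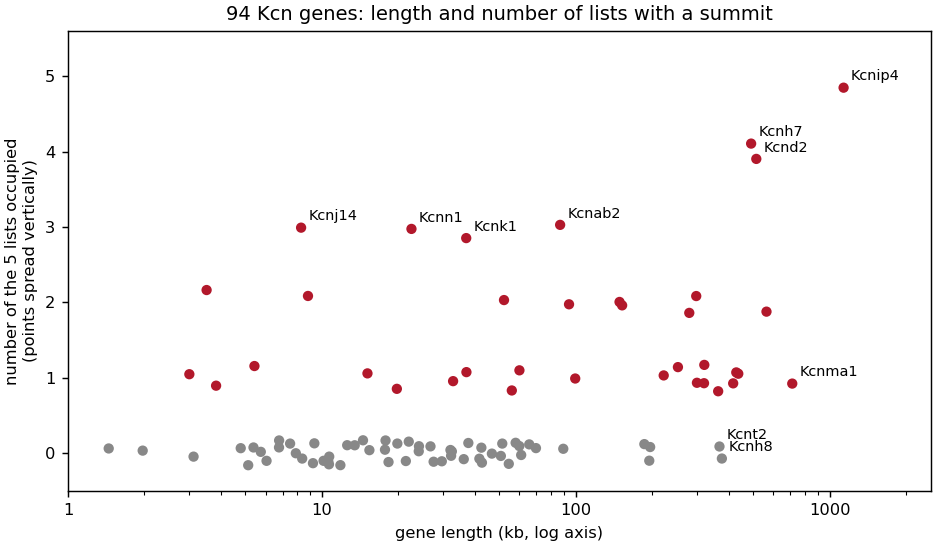
Length of each of the 94 potassium channel genes (x axis, kb, log scale) and the number of the 5 lists in which it was occupied (y axis, with points spread vertically for visibility). The 58 grey points are genes occupied in no list, and the 3 genes occupied in 4 or 5 lists, Kcnip4, Kcnd2 and Kcnh7, are each 491 kb or longer.

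Other ion channel gene sets gave different shares. The calcium channel set was made of genes with Cacna, Cacnb or Cacng symbols, and the sodium channel set of Scn genes and Nalcn. Of 26 calcium channel subunit genes, 20 were occupied in the E16 basal ganglia (76.9%, 56.4 to 91.0), where 44.6% of other genes of the same lengths were. In the E16 cortex 15 were (57.7%, 36.9 to 76.6), against 19.6%. The measured shares of potassium and calcium channel genes are not weighted to a common length, so they are not directly comparable. Calcium channel genes were not recounted with the gene body alone or with each summit given to its nearest gene. Of 14 sodium channel genes, 3 were occupied in the E16 basal ganglia (21.4%, 4.66 to 50.8) against 39.6% of others of the same lengths, and 3 in the E16 cortex. Differences between gene families were not tested, and genes of 1 library are not replicates.

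The subfamilies are given with the share of other genes of the same lengths occupied in at least 1 list. Of the Kv7 genes, some of which carry the M current that limits repetitive firing, 4 of 5 were occupied (61.0% of the others). Of the calcium-activated SK and IK genes 3 of 4 were occupied (47.8% of the others), and of the BK genes 3 of 5 (49.4%). Among Kv4 genes 2 of 3 were occupied (62.0%), among Kv beta subunit genes 2 of 3 (50.4%), and among the KChIP genes 2 of 4 (55.3%). In the ether-a-go-go family 4 of 8 members were occupied (52.8%), in the two-pore channels 6 of 14 (36.1%) and in the inward rectifiers 5 of 15 (36.9%). Several of these counts are near the share for their lengths. At the low end, 2 of 8 Kv1 genes (Kcna7 in the E16 cortex, at a summit in Lhb, and Kcna5 in the E16 olfactory bulb, 9.01 kb upstream) were occupied (28.1% of the others), as was 1 of 10 modulatory Kv genes without channel activity of their own (31.6%). None of the 4 Kv3 genes, the 5 Kcne accessory genes or the 3 sodium- and pH-gated Slo genes had a summit. At the lengths of these genes, 39.8% of other genes were occupied for Kv3, 25.1% for Kcne and 51.8% for Slo, shares that correspond to 1 or 2 genes each.

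**Figure D3:**
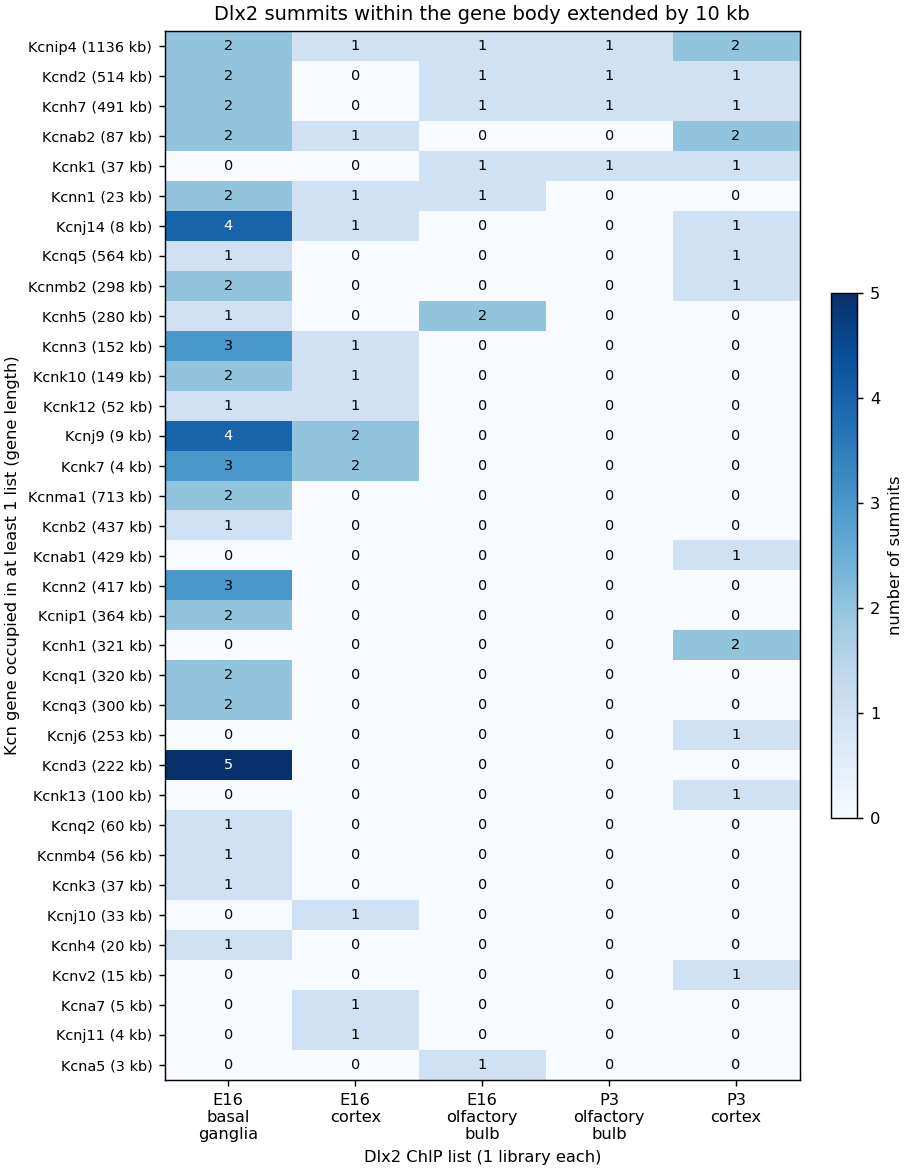
Number of Dlx2 summits (cell values and shading) within 10 kb of 35 of the 36 occupied potassium channel genes (rows, with gene length) in each list (columns). The E16 basal ganglia column holds most summits, up to 5 at Kcnd3, and Kcnip4 is the only row with a summit in all 5 lists.

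Kv4 channels and their KChIP partners include the most widely occupied genes. Kcnip4, which encodes a calcium-binding KChIP subunit that modulates Kv4 gating, is the longest potassium channel gene (1136 kb). It is the only one occupied in all 5 lists, as were 0.251% of all protein-coding genes. Only 0.178% of all protein-coding genes are as long or longer, and the share in all 5 lists at this length was not computed. The same intragenic site was listed each time (chr5:49047809-49048493), with summits that lay within 166 bp of each other, about 659 kb from the left end of the gene. Its fold enrichment was 9.97 in the E16 basal ganglia, 5.21 in the E16 cortex, 7.08 in the E16 olfactory bulb, 10.5 in the P3 olfactory bulb and 4.33 in the P3 cortex. These fold enrichments are the authors' own values per region, and they are comparable only within a list. Ranks follow the authors' −log10 q. The site ranked 48 of 734 in the P3 olfactory bulb and 230 of 1666 in the E16 olfactory bulb, and was the strongest region within 10 kb of a potassium channel gene in both lists. In the E16 cortex and P3 cortex it lay in the weaker part of the list, at rank 3322 of 6333 and 1450 of 2139.

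Kcnd2, a pore-forming Kv4 gene, was occupied in 4 lists but not always at the same place. A site near the middle of the gene (chr6:21471978-21472712) had a fold enrichment of 9.70 in the E16 basal ganglia, 4.59 in the E16 olfactory bulb and 6.29 in the P3 olfactory bulb. The P3 cortex summit lay elsewhere in the gene, 52.9 kb from its start (4.33), and the E16 cortex list had none. The related gene Kcnd3 held the most summits of any potassium channel gene in 1 list, 5 in the E16 basal ganglia, with fold enrichments from 3.08 to 4.79. None of these 5 regions was in another list. A further site 43 kb outside Kcnd3 was in the E16 basal ganglia (9.38), E16 olfactory bulb (6.55) and P3 olfactory bulb (6.40) lists. Bulb and basal ganglia lists thus shared a site in Kcnd2 and one outside Kcnd3 that neither cortex list held. The whole lists had the same pattern. Of all E16 olfactory bulb regions, 72.7% were in the E16 basal ganglia list, 8.52% in the E16 cortex list and 18.1% in the P3 cortex list.

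Kcnh7, an ERG channel gene of the ether-a-go-go family, had 1 site in 4 lists (chr2:62806634-62808130). Its fold enrichment was 7.78 in the E16 basal ganglia, 4.001 in the E16 olfactory bulb, 5.08 in the P3 olfactory bulb and 4.69 in the P3 cortex. It was among the weakest regions of the bulb lists, at rank 1510 of 1666 and 588 of 734. Other members of the family were occupied elsewhere. Kcnh5 had 2 summits in the E16 olfactory bulb (4.70 and 4.30) and 1 in the E16 basal ganglia (5.28), none of which overlapped. Among the 5 lists Kcnh1 was occupied in the P3 cortex alone, by a region 231 kb into the gene (6.65) and by a second at its start (4.43).

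Kcnk1, which encodes a two-pore leak channel, held the highest-ranking potassium channel region within a list. The region in the P3 cortex (chr8:126022766-126024133) spanned 1368 bp with a fold enrichment of 31.9 and ranked 8 of 2139. The site ranked lower within the E16 olfactory bulb list (5.32, rank 960 of 1666) and the P3 olfactory bulb list (4.59, rank 685 of 734). The P3 cortex list is the only one without marked removal of duplicate reads, and fold enrichments are not compared between lists. Neither the E16 basal ganglia list nor the E16 cortex list, the 2 longest, held it. All 3 summits lay within the gene, about 28 kb downstream of its annotated start and within 315 bp of each other.

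Of the sites in all 5 lists, 2 lay far outside the 10 kb flank and had a potassium channel gene as their nearest protein-coding gene. One was 62 kb outside Kcng1, which encodes a silent subunit that modifies Kv2 channels (chr2:168343476-168344224). Its fold enrichment was 12.4 in the E16 basal ganglia, 5.67 in the E16 cortex, 11.2 in the E16 olfactory bulb, 10.6 in the P3 olfactory bulb and 4.76 in the P3 cortex. It ranked 22 of 1666 in the E16 olfactory bulb. The other was 145 kb outside Kcnn2, an SK channel gene, at chr18:45122949-45124095. The fold enrichment there was 26.1 in the E16 basal ganglia, 3.66 in the E16 cortex, 8.59 in the E16 olfactory bulb, 12.1 in the P3 olfactory bulb and 7.76 in the P3 cortex. Both sites were stronger in the basal ganglia and bulb lists than the intragenic sites of Kcnd2 and Kcnh7. Kcnk2 had a site 22 kb outside the gene in the E16 basal ganglia (7.62), E16 cortex (4.78) and P3 cortex (6.68) lists. By rule Kcng1 and Kcnk2 count as unoccupied, as do all genes with distal regions alone.

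**Figure D4:**
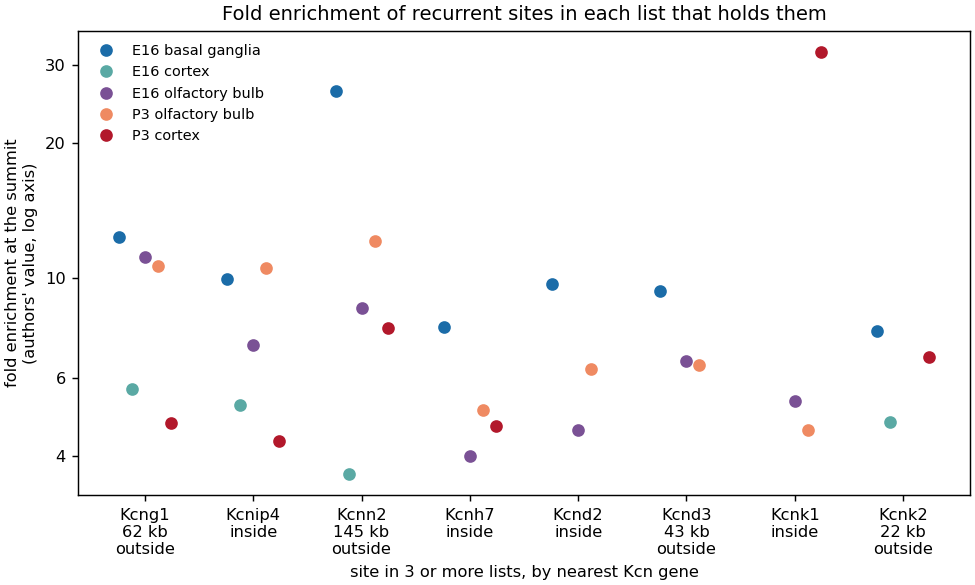
Fold enrichment at the summit (y axis, log scale, authors' values) of the 8 sites in 3 or more lists whose nearest protein-coding gene is a potassium channel gene, with 1 point per list that holds the site. The Kcnk1 site reaches 31.9 in the P3 cortex alone, whereas the Kcnn2 site reaches 26.1 in the E16 basal ganglia. Values belong to single libraries of unknown depth and are comparable only within a list. The P3 cortex list alone lacks marked removal of duplicate reads.

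These 8 sites were 3 of 34 merged regions in all 5 lists, 1 of 128 in exactly 4 lists and 4 of 527 in exactly 3. Distal regions were found for the family at shares that differed from list to list. Of 70 E16 basal ganglia regions whose nearest protein-coding gene was a potassium channel gene, 26 lay more than 10 kb outside it (37.1%), against 27.9% of all regions of the list and their nearest genes. Several of the 26 lay in a single cluster (chr14:61644662-61648680), 32.0 to 35.7 kb outside Kcnrg. The count beyond 10 kb was 4 of 11 in the E16 cortex, with a region of the same cluster among them, against 5.75% of all regions. It was 6 of 14 in the E16 olfactory bulb (46.5% of all), 6 of 10 in the P3 olfactory bulb (43.0%) and 10 of 24 in the P3 cortex (39.5%).

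By the summit rule, 7 potassium channel genes were occupied in at least 3 lists (7.45%), where 3.66% of all protein-coding genes were and 7.90% of others of the same lengths. They were Kcnip4, Kcnd2, Kcnh7, Kcnab2, Kcnk1, Kcnn1 and Kcnj14. Only 4 of the 7 remained when each summit was given to its nearest gene (Kcnip4, Kcnd2, Kcnh7 and Kcnk1), and 4 met the count without the P3 cortex list (Kcnip4, Kcnd2, Kcnh7 and Kcnn1). Of all protein-coding genes, 2.87% met the count with nearest genes and 2.16% without the P3 cortex list. Kcnab2, which encodes a cytoplasmic beta subunit of Kv1 channels, had an intragenic site in the E16 basal ganglia (4.10) and P3 cortex (5.33). The summit counted for it in the E16 cortex (4.78), and a second one in the E16 basal ganglia (4.49), lay in the neighbouring chromatin remodeller gene Chd5.

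Short potassium channel genes were often counted through a neighbour. Kcnk7, a two-pore channel gene of 3.51 kb, had the strongest region within 10 kb of a potassium channel gene in the E16 basal ganglia list (16.6) and in the E16 cortex list (17.5). The first lay within Map3k11, a stress kinase gene, and the second within Ehbp1l1. Kcnn1, an SK channel gene, had its strongest regions within Ccdc124 (10.7 in the E16 basal ganglia and 11.95 in the E16 cortex). All 4 E16 basal ganglia summits of Kcnj14, an inward rectifier gene, lay in Cyth2 or in the NMDA receptor gene Grin2d. Kcnj9, a G protein-gated inward rectifier gene, had 4 summits in the E16 basal ganglia, of which 1 lay inside it (5.41) and 2 within Igsf8. A region spanning 3653 bp in the E16 cortex had its summit 0.21 kb outside Kcnj9 (11.1). Kcnj11, the pore subunit of the ATP-sensitive channel, lies beside Abcc8, the gene of its sulfonylurea receptor subunit, and the E16 cortex summit (6.91) was nearer to Abcc8.

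The share of regions inside a potassium channel gene differed between lists. It was 39 of 55 regions in the E16 basal ganglia, 6 of 15 in the E16 cortex, 7 of 8 in the E16 olfactory bulb, 4 of 4 in the P3 olfactory bulb and 14 of 16 in the P3 cortex. Over all protein-coding genes counted in the same way, 68.3, 63.3, 77.2, 71.3 and 64.2% of the summits lay inside the gene. In the flanks another protein-coding gene was nearest for 11 regions in the E16 basal ganglia, 8 in the E16 cortex, 2 in the P3 cortex and 0 in the bulb lists. With each summit given only to its nearest gene, the E16 cortex count fell from 13 to 6 genes, whereas 24 of 26 were kept in the E16 basal ganglia and 11 of 13 in the P3 cortex. Of all protein-coding genes occupied, 67.7% were kept in the E16 cortex, 76.2% in the E16 basal ganglia and 81.5% in the P3 cortex, so the count fell for genes in general too. The kept E16 cortex genes included Kcnj9, Kcnk10, Kcnk12, Kcnn3 and Kcnip4. Kcnk10, a mechanosensitive two-pore channel gene, had 12.9 and 4.05 at a shared site, with summits 12.4 and 12.6 kb downstream of its start.

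**Figure D5:**
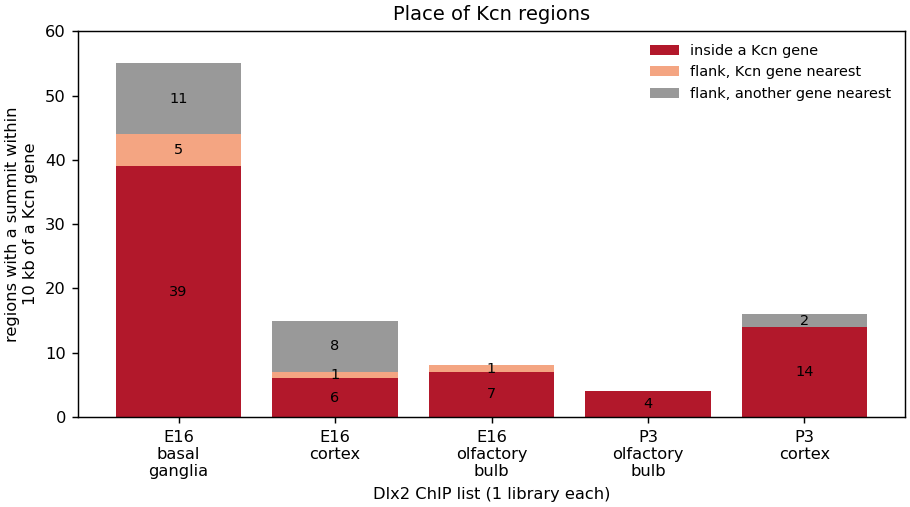
Number of regions (y axis) with a summit within 10 kb of a potassium channel gene in each list, split by whether the summit was inside the gene, in the flank with that gene nearest, or in the flank with another protein-coding gene nearest. In the E16 cortex 8 of 15 regions were nearest to another gene, against 0 of 8 and 0 of 4 in the bulb lists.

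Potassium channel regions had a median fold enrichment above that of the whole list in some lists and below it in others. Their median fold enrichment was 4.79 in the E16 basal ganglia, 5.57 in the E16 cortex, 4.44 in the E16 olfactory bulb, 5.68 in the P3 olfactory bulb and 5.01 in the P3 cortex. The medians of the whole lists were 4.55, 5.02, 5.25, 5.69 and 4.42. Regions were also ranked by the authors' −log10 q. Among the strongest 10% of the list were 8 of 55 potassium channel regions in the E16 basal ganglia and 5 of 15 in the E16 cortex. In the E16 olfactory bulb 0 of 8 were, in the P3 olfactory bulb 1 of 4, and in the P3 cortex 1 of 16. All 5 of those in the E16 cortex lay outside the potassium channel gene.

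When each list was limited to its 734 strongest regions, the length of the shortest list, the P3 cortex held the most occupied potassium channel genes. There were 9 in the P3 cortex, where 2.28% of all protein-coding genes were occupied, and 4 in the P3 olfactory bulb, where 2.03% were. The E16 cortex had 4 (4.39% of all genes), the E16 basal ganglia 2 (2.78%) and the E16 olfactory bulb 1 (1.63%). The P3 cortex genes were Kcnk1, Kcnh1, Kcnv2, Kcnab1, Kcnmb2, Kcnj6, Kcnab2, Kcnh7 and Kcnk13. At this length the potassium channel share in the P3 cortex was 5.30 points above that of other genes of the same lengths, and the others' share lay just outside the counting interval (difference 0.19 to 13.1).

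The genes occupied at the 2 ages overlapped in part. At E16 31 potassium channel genes were occupied in at least 1 list and at P3 13, with 8 in common. Of all protein-coding genes occupied at P3, 30.5% were in no E16 list, against 5 of 13 potassium channel genes (38.5%). The 5 genes occupied at P3 and in no E16 list were all found in the P3 cortex. Kcnab1, a beta subunit gene of Kv1 channels, had a fold enrichment of 6.13 there, and Kcnj6, a G protein-gated inward rectifier gene, had 5.96. Kcnv2, a silent subunit gene known from photoreceptors, had 6.68, Kcnh1 had 6.65 and 4.43, and Kcnk13 had 5.41 at a summit nearer to the DNA repair gene Tdp1. Without the P3 cortex list, 31 genes were occupied in at least 1 list in place of 36. Of all protein-coding genes 29.7% were, in place of 31.7%. Kcnmb2, which encodes an inactivating BK beta subunit, was occupied in both the E16 basal ganglia (5.08 and 4.31) and the P3 cortex (6.32), but at different places.

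Regions at potassium channel genes were shared between some lists more than others. Of 15 E16 cortex regions at potassium channel genes 12 overlapped an E16 basal ganglia region by at least 1 bp (80.0%, 51.9 to 95.7), against 61.5% of the whole list. All 4 P3 olfactory bulb regions were in the E16 olfactory bulb list (39.8 to 100%), against 71.5%. Only 3 of the 8 E16 olfactory bulb regions were also in the E16 basal ganglia list (37.5%, 8.52 to 75.5), against 72.7% of the whole list. Of 16 P3 cortex regions 1 was in the E16 cortex list, that at Kcnip4 (6.25%, against 5.14% of the whole list), and 3 were in the P3 olfactory bulb list, at Kcnip4, Kcnh7 and Kcnk1 (18.8%, against 8.88%). In the P3 cortex 12 of 16 potassium channel regions were in no other list, against 63.7% of the whole list, and in the E16 basal ganglia 36 of 55 were, against 63.5%. The counts are small, and these differences were not tested.

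Promoters were seldom covered. RefSeq promoter windows of 300 bases, from 250 before to 50 after an annotated start, were at hand for 69 of the 94 genes. A region lay over such a window at 0 of the 69 genes in the E16 basal ganglia, where 3.73% of all genes with a window were covered, and at 0 in the E16 cortex (1.26%), E16 olfactory bulb (0.337%) and P3 olfactory bulb (0.269%). In the P3 cortex the window of 1 gene, Kcnh1, was covered (1.07% of all genes). Kcnh1 encodes the founding mammalian ether-a-go-go channel, and its summit lay 21 bp upstream of the start. The nearest other case was Kcnd3, with an E16 basal ganglia summit 659 bp upstream of its start (3.08), within 1 kb of the antisense gene Kcnd3os. Both windows are shown because, among the 69 genes, they are the only ones with a summit within 1 kb of a start in the promoter table. At Kcnn1 an E16 olfactory bulb summit (3.59) lay 0.006 kb inside the upstream end of the gene record, at -2.43 kb from the start in the promoter table. Capitals mark GGGCGG, the core of Sp-family sites, on either strand. The homeodomain core TAATT, searched likewise on both strands, is in neither.
Kcnh1 (P3 cortex, GRCm38.p6, chr1:192190527-192190826, plus strand): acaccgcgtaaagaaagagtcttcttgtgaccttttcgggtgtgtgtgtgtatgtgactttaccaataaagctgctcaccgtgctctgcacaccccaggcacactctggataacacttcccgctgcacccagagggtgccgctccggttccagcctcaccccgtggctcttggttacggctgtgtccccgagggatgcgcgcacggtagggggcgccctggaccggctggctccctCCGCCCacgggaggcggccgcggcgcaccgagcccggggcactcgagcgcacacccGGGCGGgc
Kcnd3 (E16 basal ganglia, GRCm38.p6, chr3:105451640-105451939, plus strand): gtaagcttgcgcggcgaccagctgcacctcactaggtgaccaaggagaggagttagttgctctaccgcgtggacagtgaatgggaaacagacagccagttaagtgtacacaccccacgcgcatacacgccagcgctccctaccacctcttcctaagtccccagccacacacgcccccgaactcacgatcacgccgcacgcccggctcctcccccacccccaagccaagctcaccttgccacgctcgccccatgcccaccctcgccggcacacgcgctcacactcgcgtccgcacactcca

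Both windows are rich in G and C (66% for Kcnh1 and 64% for Kcnd3, against a median of 56.3% over protein-coding promoter windows). The 69 genes with a window had 94 windows between them, so some genes count more than once, and 25 genes had none. TAATT was in 15 of these 94 windows (15.96%), against 23.5% of 21263 windows of protein-coding genes. Its extensions were rarer, with TAATTG in 6 windows (6.38%, against 6.83%) and the palindrome TAATTA in 0 (against 4.53%). GGGCGG was in 45 windows (47.9%, against 46.2%). TAATTA and TAATTG both contain TAATT, so these counts overlap, and a match describes the letters and not a bound site. The TAATTG windows belong to Kcnq5, Kcnj13, Kcnip3, Kcnip1 and Kcnk12, with 2 at Kcnip1, and no region lay over any of them.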

How the data were processed

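The authors deposited 1 list of called regions per Dlx2 immunoprecipitation as narrowPeak files. Per the submitters' processing notes the tools were Trimmomatic, Bowtie2, SAMtools and MACS2, with the build mm10. Which versions, calling threshold, control library and depth applied is not given in the sources used here. Fold enrichment is the authors' deposited ratio at the summit. The −log10 p and −log10 q values are also the authors', and −log10 q ranked regions within a list. The deposited score was not used.

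Summits (start plus offset, counted from 1) were placed on RefSeq genes of GRCm38.p6, which give gene ends but no exons, so exon and intron were not assigned. Strand and starts came from the RefSeq promoter table. Weighted shares are the mean, over the potassium channel genes, of the share of other genes occupied in the same of 20 length classes. Regions overlapping by 1 bp were called shared. The counting was checked on simulated summits. Python 3.11.15, pandas 2.3.3 and scipy 1.17.1 were used. The members, gene lists and settings were chosen with earlier results of these data known.

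Named genes are those at the 5 strongest potassium channel regions of a list, those with the most summits (3 per list), those occupied in at least 3 lists or in the P3 olfactory bulb, those occupied only at P3, those with a summit within 1 kb of a start in a bulb or P3 list, the 5 longest unoccupied genes, and those nearest to a region in all 5 lists. Kcna7, Kcnn3, Kcnk12, Kcnrg and the genes named for promoter letters alone were named after their values were seen. Of the genes the rule names, 1 is not reported here. No genome or protein sequence was used here, so motifs at summits and selectivity filters were not examined.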

Additional observations from a re-analysis of the deposited data

Results flagged for a closer look

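In both tissues profiled at both ages, the difference between the potassium channel share and that of other genes of the same lengths was below 0 at E16 and above 0 at P3. In the cortex it was -5.30 percentage points at E16 and 2.99 at P3, a change of 8.30 points. In the olfactory bulb it was -0.54 and 0.037, a change of 0.576 points. Each age is 1 library, the difference was not tested, and all 4 values lie within the counting error of the potassium channel share. The cortex lists also differ in length (6333 regions at E16 and 2139 at P3). Only the P3 cortex list lacks marked removal of duplicate reads, so age and processing cannot be told apart there. The bulb signs were not kept under every alternative: the E16 value was 1.22 with 10 length classes, and the P3 value was -0.433 with 50 classes and -0.738 with −log10 q of at least 5.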

How the results depend on the processing

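The counts of occupied potassium channel genes moved with the flank and the list length. Their differences from other genes of the same lengths changed in size. All 40 alternative differences stayed within the counting error of the reported difference. The counts below are out of 94, and brackets give the share of all protein-coding genes under the same setting. With the gene body alone, 6 genes were occupied in the E16 cortex (11.2%) and 4 in at least 3 lists (2.37%). With 50 kb flanks 46 were occupied in the E16 basal ganglia (42.4%) and 28 in the E16 cortex (28.7%). The P3 olfactory bulb had 7 (3.98%) and the P3 cortex 23 (12.4%), and 13 were in at least 3 lists (8.98%). With the 734 strongest regions of each list the E16 basal ganglia had 2 (2.78%) and the E16 cortex 4 (4.39%). The E16 olfactory bulb had 1 (1.63%), and 0 were in at least 3 lists (0.68%). Without regions wider than 1 kb the E16 cortex had 8 genes (14.4%), and 4 were in at least 3 lists (3.42%). With each summit given to its nearest gene the numbers were 6 (11.5%) and 4 (2.87%). Without the P3 cortex list, an alternative chosen after seeing the data, 4 genes were in at least 3 lists (2.16%). Of 39 alternative gene counts 23 stayed within 1.5 times the value reported, as did all of those with −log10 q of at least 5. The differences from other genes ranged from -8.56 to -1.80 points in the E16 basal ganglia, from -8.20 to -0.217 in the E16 cortex, from -2.98 to 1.22 in the E16 olfactory bulb, from -0.738 to 1.17 in the P3 olfactory bulb and from 1.92 to 7.45 in the P3 cortex. In 36 of 40 the share of other genes lay within the counting interval of the potassium channel share, as in all 5 reported values. The 4 exceptions were the E16 cortex with the gene body alone (-7.56), without wide regions (-8.20) and with nearest genes (-7.51), and the P3 cortex with the 734 strongest regions (5.30). The differences were below 0 for the basal ganglia and E16 cortex lists, and above 0 for the P3 cortex list, under each of the 8 alternatives. Of 20 overlap counts 3 moved when 50% of each region had to overlap: E16 basal ganglia regions in the E16 cortex list from 16 to 10, and those shared by the E16 basal ganglia and P3 cortex lists from 3 to 0 in either direction. No paired analysis was possible because each group has 1 library. Depth is unknown and limits every count.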

Other observations

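Among 15 partners of potassium channels whose symbols do not begin with Kcn, 10 were occupied in the E16 basal ganglia (66.7%, 38.4 to 88.2), where 43.6% of other genes of the same lengths were and 26.3% of all genes. In the E16 cortex 5 were (33.3%, 11.8 to 61.6), against 19.0%. Cntnap2, which clusters Kv1 channels along axons, held 8 summits in the E16 basal ganglia and 1 in the E16 olfactory bulb, and is 2241 kb long. Ank3, a scaffold of the axon initial segment, held 5 in the E16 basal ganglia, 4 in the E16 cortex and 1 in the P3 cortex. Cntn2, a partner of Cntnap2 of 33.8 kb, held 2 in the E16 basal ganglia and 11 in the E16 cortex. The Kv4 partners Dpp10 and Dpp6 held 3 and 2 in the E16 basal ganglia. Amigo1, an accessory protein of Kv2 channels, was occupied in the E16 basal ganglia, E16 cortex and P3 olfactory bulb lists. These differences were not tested.

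Among calcium channel genes Cacna1c, the pore subunit of an L-type channel, was occupied in all 5 lists, with 5 summits in the E16 basal ganglia, 2 in the E16 cortex, 3 in the E16 olfactory bulb and 1 each in the P3 lists. Cacna2d2 held 11 summits and Cacna2d3 10 in the E16 basal ganglia. These genes were named after their values were seen.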
